A study of Mus musculus with 24 samples.

Results

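The genes described here encode splicing factors of 3 families: the SR proteins (SRSF), the heterogeneous nuclear ribonucleoproteins (HNRNP) and the subunits of splicing factor 3 (SF3A and SF3B). They were chosen by name, as every gene of the count files whose symbol begins with Srsf and a number, with Hnrnp, or with Sf3a or Sf3b and a number, and no measured value entered the choice. This gave 37 of the 23420 genes in the files, of which 11 were SRSF, 18 HNRNP, 3 SF3A and 5 SF3B genes. All 37 had counts high enough to be tested, among 12584 genes tested in all. The files list Hnrnpll, Hnrnpdl and Sf3b6 under their older names Hnrpll, Hnrpdl and 0610009D07Rik, so the name rule did not take them. They are given separately.

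SR proteins bind short sequences in exons and help the splicing machinery to find the neighbouring splice sites. The hnRNPs coat newly made RNA, and several of them work against SR proteins by hiding or looping out splice sites. SF3A and SF3B belong to the U2 small nuclear ribonucleoprotein (snRNP), which pairs with the branch point of the intron. T cells are a textbook case of regulated splicing, since the phosphatase CD45 loses its variable exons on activation, an event controlled by hnRNP L and its relative hnRNP LL. Many SR protein genes also make a form with a premature stop codon that is removed by nonsense-mediated decay. Gene counts sum all forms of a gene, and splice forms were not analysed here.

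RNA was sequenced in 24 libraries of mouse CD4 T cells, 6 in each of 4 groups. All groups shared the genotype given as OT2Nur77GFP+/- on a C57BL/6 background. OT-II is a transgenic T cell receptor for an ovalbumin peptide, and the other transgene makes green fluorescent protein under the promoter of Nr4a1, the gene of Nur77. Naive cells were taken from spleens, and activated naive cells were stimulated for 6 hours with a stimulus that the labels used here do not name. TH1 effector cells were differentiated in culture for 5 days, and reactivated TH1 cells were such cells kept for 6 further hours with macrophages carrying antigen. A control with macrophages but no antigen was not among the groups, so what antigen and what macrophages did cannot be told apart. Nor was there a group of naive cells kept for 6 hours without the stimulus. Effects of the stimulus and of those 6 hours therefore cannot be told apart either. Whether libraries of 1 group stem from different mice or cultures is not stated, and the p-values therefore cover only library-to-library spread, which may be technical.

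A library held between 18457653 and 34262645 gene counts (median 26994387). The libraries came from 2 sequencing runs, read from the file names, with 3 libraries of every group in each. Levels are given as CPM, counts scaled to a common library total, after scaling for the composition of each library. Summed CPM of 9 T cell identity genes ranged from 4600.3 to 5217 in naive and 4307 to 6000.4 in activated naive libraries, against 2586 to 2788 in TH1 effector and 3149.5 to 3569.6 in reactivated TH1 ones. The gene of the T cell receptor chain CD3 epsilon, Cd3e, was present in every library (206 to 476 CPM), as was Cd4 (120 to 985 CPM, lowest in activated naive cells). The summed CPM of 13 macrophage markers came to between 7.54 and 11.4 in naive and between 10 and 12 in activated naive libraries, against 3.49 to 5.2 in TH1 effector and 12.4 to 18.7 in reactivated TH1 ones. CPM is a share of a library, and in bulk RNA fewer cells of a type and less RNA per cell cannot be told apart.

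Promoters are shown for the 3 SF3A genes, whose levels rose in both stimulations, and for Srsf7, Srsf5, Srsf2 and Hnrnpab, on which the results below turn. Each run holds 250 bases before and 50 after the gene's start, 5′ to 3′ on the gene's strand, from RefSeq on GRCm38.p6. The search covered 4 motifs on both strands: the E-box CACGTG, the ETS core CCGGAAG, the consensus of NRF1 and the TATA box TATAAA. The capitals mark the matches found, and a match on the opposite strand to CCGGAAG reads CTTCCGG.
Sf3a1, chr11:4160104-4160403, plus strand: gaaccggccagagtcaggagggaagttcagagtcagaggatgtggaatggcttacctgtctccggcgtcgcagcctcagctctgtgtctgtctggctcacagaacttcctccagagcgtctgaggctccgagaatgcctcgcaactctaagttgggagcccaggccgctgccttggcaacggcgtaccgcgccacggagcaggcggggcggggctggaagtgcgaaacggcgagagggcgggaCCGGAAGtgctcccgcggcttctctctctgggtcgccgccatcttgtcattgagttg
Sf3a2, chr10:80798485-80798784, plus strand: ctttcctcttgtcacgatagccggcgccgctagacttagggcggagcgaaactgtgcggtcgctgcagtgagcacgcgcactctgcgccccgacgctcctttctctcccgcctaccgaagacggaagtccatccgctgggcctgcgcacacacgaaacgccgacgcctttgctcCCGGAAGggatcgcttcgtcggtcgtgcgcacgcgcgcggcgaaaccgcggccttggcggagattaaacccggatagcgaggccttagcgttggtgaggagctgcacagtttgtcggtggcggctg
Sf3a3, chr4:124714611-124714910, plus strand: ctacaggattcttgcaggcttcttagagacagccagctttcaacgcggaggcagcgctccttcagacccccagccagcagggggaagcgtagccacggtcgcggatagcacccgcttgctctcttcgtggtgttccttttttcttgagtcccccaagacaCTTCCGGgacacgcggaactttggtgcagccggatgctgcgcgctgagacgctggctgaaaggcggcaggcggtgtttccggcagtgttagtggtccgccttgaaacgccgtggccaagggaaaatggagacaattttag
Srsf7, chr17:80207256-80207555, minus strand: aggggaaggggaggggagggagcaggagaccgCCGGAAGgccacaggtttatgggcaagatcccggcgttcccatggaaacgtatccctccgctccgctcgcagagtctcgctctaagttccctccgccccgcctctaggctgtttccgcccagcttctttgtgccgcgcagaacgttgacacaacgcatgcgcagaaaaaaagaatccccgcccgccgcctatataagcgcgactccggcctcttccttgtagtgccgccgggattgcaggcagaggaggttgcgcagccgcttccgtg
Srsf5, chr12:80945249-80945548, plus strand: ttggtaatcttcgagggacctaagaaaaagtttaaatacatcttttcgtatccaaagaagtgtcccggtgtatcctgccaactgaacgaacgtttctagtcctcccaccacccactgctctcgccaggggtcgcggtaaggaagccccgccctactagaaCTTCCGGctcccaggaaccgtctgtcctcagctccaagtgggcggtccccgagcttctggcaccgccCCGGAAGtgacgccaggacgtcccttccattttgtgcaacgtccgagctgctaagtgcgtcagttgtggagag
Srsf2, chr11:116853045-116853344, minus strand: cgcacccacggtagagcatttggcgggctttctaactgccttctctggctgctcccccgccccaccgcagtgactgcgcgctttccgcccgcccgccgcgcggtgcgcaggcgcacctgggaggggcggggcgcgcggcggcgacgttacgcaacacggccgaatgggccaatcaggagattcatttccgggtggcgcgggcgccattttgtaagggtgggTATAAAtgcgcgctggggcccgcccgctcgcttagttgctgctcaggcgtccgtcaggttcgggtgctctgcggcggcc
Hnrnpab, chr11:51606832-51607131, minus strand: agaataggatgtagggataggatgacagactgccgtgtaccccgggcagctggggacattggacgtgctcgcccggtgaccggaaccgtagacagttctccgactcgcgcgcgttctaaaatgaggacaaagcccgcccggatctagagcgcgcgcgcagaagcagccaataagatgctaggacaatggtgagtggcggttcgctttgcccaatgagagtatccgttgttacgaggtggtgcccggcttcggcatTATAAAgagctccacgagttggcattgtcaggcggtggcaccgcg

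All 3 SF3A promoters held the ETS core, the letters at the centre of sites for ETS family transcription factors. It began 7 bases before the start in Sf3a1, 76 before it in Sf3a2 and 90 before it in Sf3a3. Srsf7 held it once and Srsf5 held it 2 times, although these 2 genes moved in opposite directions in activated naive cells. Over all members, 34 of 37 had a RefSeq promoter (not Hnrnpul2, Sf3b4 and Sf3b5), in 47 windows because some genes have several starts. The ETS core was in 16 of these windows (34%), belonging to 11 genes, against 8.86% of the 32851 windows of all genes. Members were richer in G and C, with a median of 65% against 52.7%, which was not matched in this comparison.

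The E-box was in 5 windows (10.6% against 7.15% of all), the NRF1 motif in 1 (2.13% against 0.971%) and the TATA box in 5 (10.6% against 13.6%). In Srsf2 the TATA box began 29 bases before the start, and in Hnrnpab it lay just past it. A match describes letters and was not tested as a binding site.

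As whole families the SR proteins, hnRNPs and SF3 subunits each stood higher after 6 hours of stimulation than before it, in naive and in TH1 cells. Summed SRSF levels had a lowest, median and highest value of 2866, 2976 and 3201 CPM in naive libraries and of 4249, 4539 and 4759 in activated naive libraries. They were 2599, 2679 and 2765 CPM in TH1 effector and 4021, 4120.3 and 4409 in reactivated TH1 libraries. Every stimulated library lay above every unstimulated one.

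HNRNP sums had medians of 5983 CPM before and 9366 after stimulation of naive cells, and of 6788 before and 9872 after restimulation of TH1 cells. SF3 sums had medians of 2241, 2966, 1723 and 2307 CPM in the same order, and here the highest reactivated TH1 library (2436) was below the lowest activated naive one (2877). Between these groups Sf3b1 had means of 1121 CPM in activated naive and 590.4 in reactivated TH1 cells. By the test described below, 5 of the 8 SF3 genes were higher in reactivated TH1 cells and 3 lower, beside 43.4% and 36.4% of all genes. The plot of family sums shows all 24 libraries. A sum is led by the genes with most counts, and no test was made on it.

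**Figure D1:**
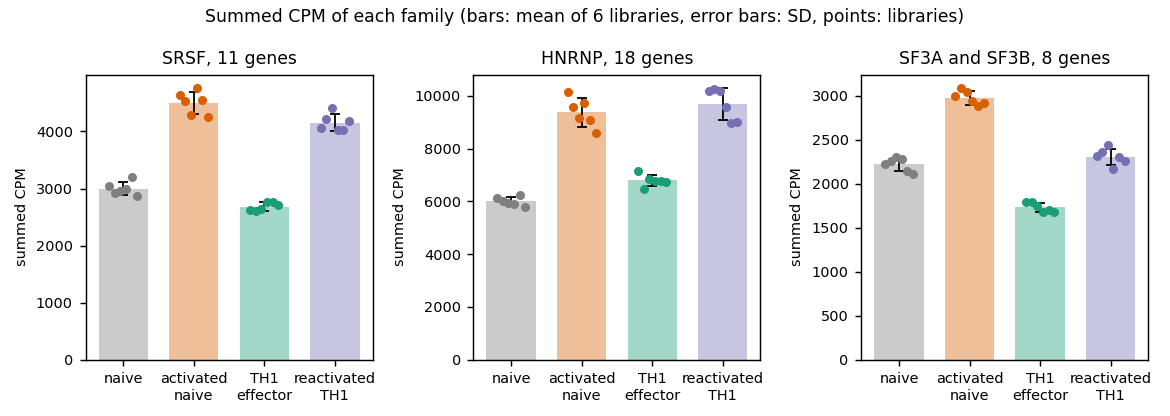
Summed CPM (vertical axis) of the 11 SRSF, 18 HNRNP and 8 SF3A and SF3B genes in the 4 groups. Bars are means of 6 libraries, error bars their SD and points the libraries. SRSF and HNRNP sums of the stimulated groups lie above those of the unstimulated groups, while SF3 sums are highest in activated naive cells.

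Levels of different genes were compared as CPM per kilobase of annotated exon. In naive cells the highest mean was that of Srsf5, an SR protein, at 202 CPM per kilobase, followed by Hnrnpa2b1 at 146 and Hnrnpf at 132. In reactivated TH1 cells Hnrnpab led with 600.1 CPM per kilobase, with Hnrnpa2b1 next and Srsf2 after it at 218. Srsf12 was the lowest member in every group, from 0.984 CPM per kilobase in naive to 0.0806 in reactivated TH1 cells. Hnrnpa1 stood at 3.25 CPM per kilobase in naive cells, and 46.7% of the 50-base words of its transcripts also occur in transcripts of 19 other genes. Such words can be dropped or split in counting, and their part in the low level was not tested. The shared percentage was 49.3% for Sf3b4, 36.8% for Hnrnpf, 31.5% for Srsf3, 27.7% for Hnrnpa3 and 23.6% for Srsf5, and it was under 10% for 27 members. Values of these genes are uncertain to that extent.

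The first comparison asked what differed in naive cells after 6 hours of stimulation, with no unstimulated 6-hour control. Nearly all splicing factors rose: 31 members were higher and 4 lower, in a comparison where 81.9% of all tested genes passed the threshold, 41.3% of them higher and 40.5% lower (percentages of all tested genes). A gene passed when its adjusted p from edgeR's quasi-likelihood test, corrected over all 12584 genes by the Benjamini-Hochberg method, was below 0.05. The median log2 fold change was 0.63 over the members and 0.00464 over all genes tested. At least 2-fold rises were seen in 10 of the 37 members, beside 21.2% of all genes. In the first run alone 30 members were higher and 4 lower, and in the second 30 and 2.

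Among SR proteins 9 of 11 rose and 2 fell. Srsf2 (SC35), which also marks nuclear speckles, had a lowest, median and highest level of 262, 285 and 307 CPM in naive libraries and of 707, 764 and 824 in activated naive ones. These groups did not overlap, and the fold was 2.67 (log2 1.42, SE 0.0435, adjusted p = 2.95e-19). Srsf1 (ASF/SF2), the SR protein first purified as a splicing factor, went from 216, 248 and 306 to 457, 550.1 and 692 CPM (2.22-fold, log2 1.15, SE 0.075, adjusted p = 9.83e-14). Srsf3, which also helps to export mRNA, went from 283, 306 and 319 to 430, 448 and 473 CPM, a smaller rise of 1.48-fold (adjusted p = 7.23e-11). Rises of the other 6 ranged from log2 0.36 for Srsf7 to 0.99 for Srsf10.

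Srsf5 (SRp40) fell, although it was the most abundant SR gene per length in naive cells. Its levels were 736, 811 and 875 CPM in naive and 558, 592 and 668 in activated naive libraries, with no overlap (log2 -0.41, SE 0.0507, adjusted p = 1.13e-07). Srsf12, a rare relative of Srsf10, went from 2.35, 3.24 and 3.46 to 1.01, 1.78 and 2.11 CPM (log2 -0.95, SE 0.279, adjusted p = 0.000919). Its 6 activated naive libraries held 246 counts in all, and the call was lost in the second run alone (adjusted p = 0.167).

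Of the hnRNPs 15 of 18 rose and 2 fell. Hnrnpab, which binds AU-rich RNA and single-stranded DNA, rose more than any other member. It ranged from 211 to 246 CPM in naive libraries and had 643, 808 and 884 in activated naive ones (3.42-fold, log2 1.78, SE 0.0593, adjusted p = 2.75e-19), so that its lowest stimulated library stood far above its highest naive one. On the opposite strand 809 bases of its 2782 exon bases overlap exons of Phykpl, and the strand setting of the counting is not given in the sources used here. Other members have such overlaps, among them Srsf4 (1532 of 3561 exon bases), Srsf2 (748 of 2958) and Sf3a2 (429 of 2658). Rises of at least 2-fold were also seen for Hnrnpd (2.18-fold), whose protein AUF1 marks AU-rich mRNAs for decay, Hnrnpc (2.12-fold), which binds runs of U, Hnrnpu (2.07-fold), a nuclear scaffold protein, and Hnrnpa3 (2.06-fold), of the A/B type.

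Hnrnpl, the repressor of the CD45 variable exons, rose by little. It had 322, 336 and 358 CPM in naive and 363, 389 and 404 in activated naive libraries (1.14-fold, log2 0.19, SE 0.0475, adjusted p = 0.00168), and these ranges did not meet. With library size as the only scaling the call was lost (log2 0.021, adjusted p = 0.697). Hnrnph1, which binds runs of G, had the smallest rise that passed (log2 0.12, SE 0.0514, adjusted p = 0.045), with overlapping groups. With replicate number as a block it did not pass (0.0547), nor without number 2 (0.0941), 3 (0.109) or 6 (0.294). It passed in neither run alone (0.131 and 0.122), and only 4 of 17 alternatives kept the call.

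Its relative Hnrnph3 went the other way, from 48.4, 51.1 and 55.4 CPM to 23.5, 27.2 and 33.2 (log2 -0.86, SE 0.0829, adjusted p = 3.45e-10). Hnrnpul2 fell by 0.24 on the log2 scale (adjusted p = 0.00121), with overlapping groups, and Hnrnpul1 did not pass.

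Of the SF3 genes 7 of 8 rose. Sf3b4, an RNA-binding subunit that touches the pre-mRNA near the branch point, went from 42.2, 48.3 and 51.9 CPM to 109, 117 and 122 (2.46-fold, log2 1.30, SE 0.0727, adjusted p = 3.81e-15). Sf3b3, a large scaffold subunit, was close behind (2.44-fold, log2 1.29, SE 0.0271, adjusted p = 1.54e-20). The 3 SF3A genes rose by log2 0.83 (Sf3a1), 0.81 (Sf3a2) and 1.0 (Sf3a3), with no overlap between groups in any of them. Groups did not overlap for 32 of the 37 members in this comparison, and over all genes this was not counted.

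Sf3b1, the subunit that clasps the branch point helix, was the exception. It had 1088, 1179 and 1306 CPM in naive and 1035, 1127 and 1197 in activated naive libraries, and the log2 difference of -0.085 did not pass (SE 0.0427, adjusted p = 0.105). It passed as lower with library size as the only scaling (log2 -0.25, adjusted p = 0.000148), when genes needed 10 CPM in 6 libraries (adjusted p = 0.0454), without number 6 (0.0249) and without numbers 5 and 6 together (log2 -0.18, adjusted p = 0.00935). Summed markers of CD8 and NK cells moved alongside this comparison, from 29.1 to 34.9 CPM in naive to 5.13 to 11.3 in activated naive libraries. Of 4 tested markers 1 was higher and 3 were lower. The part of such cells in this comparison was not tested.

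The second comparison asked the same of TH1 cells after 6 hours with antigen-bearing macrophages. It shares no library with the first. Here 28 members were higher and 3 lower, where 79.7% of all genes passed, 39.9% higher and 39.8% lower. The members' median log2 fold change was 0.44 and that of all genes -0.00227. Only 4 of the 37 members rose at least 2-fold, a smaller share than the 13.3% of all genes. With library size as the only scaling, the members divided into 23 higher and 7 lower, and the median of all genes moved by -0.12. In the first run alone 27 were higher and 3 lower, and in the second 24 and 2.

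In this comparison the summed macrophage markers rose from between 3.49 and 5.2 CPM to between 12.4 and 18.7, with 4 of 8 tested markers higher and 1 lower. In TH1 effector libraries 7 of 13 had no count, while in reactivated TH1 libraries each of the 13 had at least 1. Lyz2, a defining macrophage gene, went from 0, 0.0732 and 0.137 CPM to 4.58, 6.09 and 7.23. Summed markers of CD8 and NK cells (12.2 to 25.7, then 48.9 to 87.6 CPM) and of dendritic cells (1.51 to 3.60, then 7.19 to 10.7 CPM) moved with it too. Of 4 tested CD8 and NK cell markers 2 were higher and none lower. Of 2 tested dendritic cell markers 1 was higher and 1 lower. The part of such cells in the changes below was not tested.

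Of the SR protein genes 9 of 11 rose and 1 fell. Srsf7 (9G8), which like Srsf3 links splicing to mRNA export, rose most among them. It had 204, 211 and 218 CPM in TH1 effector and 439.6, 467 and 478 in reactivated TH1 libraries (2.20-fold, log2 1.14, SE 0.0332, adjusted p = 4.78e-18). Its 6 TH1 effector libraries lay close together and far below every other group, as the plot of single genes shows. Srsf2 went from 305, 325 and 345 to 606, 642 and 683 CPM (log2 1.0, SE 0.0435, adjusted p = 1.1e-15), a change that left no overlap.

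Srsf1 went from 315, 380.2 and 424 to 659, 685 and 703 CPM (log2 0.88, SE 0.075, adjusted p = 3.61e-11). Srsf3 rose by about as much, from 295, 310.2 and 327 to 498, 576 and 631 CPM (log2 0.87, SE 0.0445, adjusted p = 1.9e-14). Srsf12 fell from 0.486, 1.15 and 1.42 to 0.115, 0.181 and 0.548 CPM (log2 -2.17, SE 0.279, adjusted p = 8.8e-07), on only 40 counts over the 6 reactivated libraries, and 1 library overlapped the other group. Srsf5, at 428, 465 and 481 and then 405, 439 and 491 CPM, did not pass (log2 -0.076, adjusted p = 0.196). It passed as lower without number 3 (adjusted p = 0.0315), with library size as the only scaling (0.00198), with the 10 CPM minimum (0.00796) and with DESeq2 (0.019).

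Among hnRNP genes 12 of 18 rose and 2 fell. Hnrnpab again led the members, from 552, 614 and 732 CPM to 1492, 1689 and 1834 (2.64-fold, log2 1.40, SE 0.0593, adjusted p = 9.92e-17). Every reactivated library held at least 1492 CPM, above every library of the other 3 groups. Hnrnpu followed (log2 0.73, SE 0.0694, adjusted p = 3.37e-10) and Hnrnph1 rose by 0.63 (SE 0.0514, adjusted p = 8.34e-11).

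Hnrnpl had 382, 409 and 430.3 CPM in TH1 effector and 414, 476 and 524 in reactivated libraries, which overlapped (log2 0.22, SE 0.0475, adjusted p = 0.000442). This call was lost in the second run alone (adjusted p = 0.097) and with library size as the only scaling (log2 0.096, adjusted p = 0.067). Hnrnph3 fell here too, from 37.6, 39 and 47 to 24.2, 29.9 and 31.8 CPM (log2 -0.45, SE 0.0829, adjusted p = 2.06e-05). Hnrnpul1, linked to the DNA damage response, fell by 0.14 on the log2 scale (SE 0.0501, adjusted p = 0.0196), with overlapping groups at 315, 347 and 413 and at 283, 322 and 360.4 CPM, and passed in neither run alone (0.121 and 0.0983).

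The A-type genes Hnrnpa1 and Hnrnpa3, which rose in activated naive cells, did not pass. Hnrnpa1 had 5.31, 6.29 and 7.61 CPM and then 5.21, 7.98 and 8.81 (log2 0.21, SE 0.144, adjusted p = 0.164). Hnrnpa3 had 59.1, 73.9 and 84.6 CPM and then 52, 67.5 and 76 (log2 -0.14, SE 0.0898, adjusted p = 0.135). With replicate number as a block Hnrnpa3 passed as lower (log2 -0.14, adjusted p = 0.00808), as it did with library size as the only scaling (0.0131), with the 10 CPM minimum (0.0224) and with DESeq2 (0.0364).

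Of the SF3 genes 7 of 8 rose again. Sf3b4 went from 55.3, 63.8 and 68.5 CPM to 117, 156 and 175 (2.46-fold, log2 1.30, SE 0.0727, adjusted p = 7.99e-15). Sf3a2, the subunit that tethers SF3A to the U2 snRNP core, went from 65.5, 72.9 and 82.6 to between 136 and 174 CPM (2.21-fold, log2 1.14, SE 0.0566, adjusted p = 2.2e-15). Neither pair of groups overlapped. Groups did not overlap for 23 of the 37 members in this comparison, and over all genes this was not counted. Sf3a1 (log2 0.58) and Sf3a3 (0.68) rose by less.

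The smallest of the 7 was Sf3b2, which binds pre-mRNA beside Sf3b4 (log2 0.097, adjusted p = 0.025), and its call was lost without number 2 (0.0905), 3 (0.0806) or 4 (0.146). Sf3b1 had 599, 621 and 688 CPM in TH1 effector and 558, 594 and 614 in reactivated libraries and did not pass (log2 -0.095, SE 0.0427, adjusted p = 0.0753). It passed as lower with DESeq2 (log2 -0.16, adjusted p = 0.00212), with library size as the only scaling (log2 -0.22, adjusted p = 0.000844), with the 10 CPM minimum (log2 -0.17, adjusted p = 0.00343) and in the first run alone (adjusted p = 0.0311). The call was also made without numbers 5 and 6 (adjusted p = 0.03) and when only these groups were fitted (0.0477).

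Across both stimulations 28 of 37 members rose in each, Srsf12 and Hnrnph3 fell in each, and no member passed as higher in one and lower in the other. Hnrnpa3 would be such a member under the alternatives named above, the replicate block among them. Of all genes tested, 41.3% passed as higher in naive cells and 39.9% in TH1 cells. How many did so in both, or in opposite directions, was not counted. Hnrnpa1, Hnrnpa3 and Hnrnph2 passed as higher in naive cells and did not pass in TH1 cells. Hnrnpul2 and Srsf5 passed as lower in naive cells and not in TH1 cells, Hnrnpul1 passed as lower in TH1 cells and not in naive cells, and Sf3b1 passed in neither. Whether the sizes differed was tested with an interaction term, described next.

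**Figure D2:**
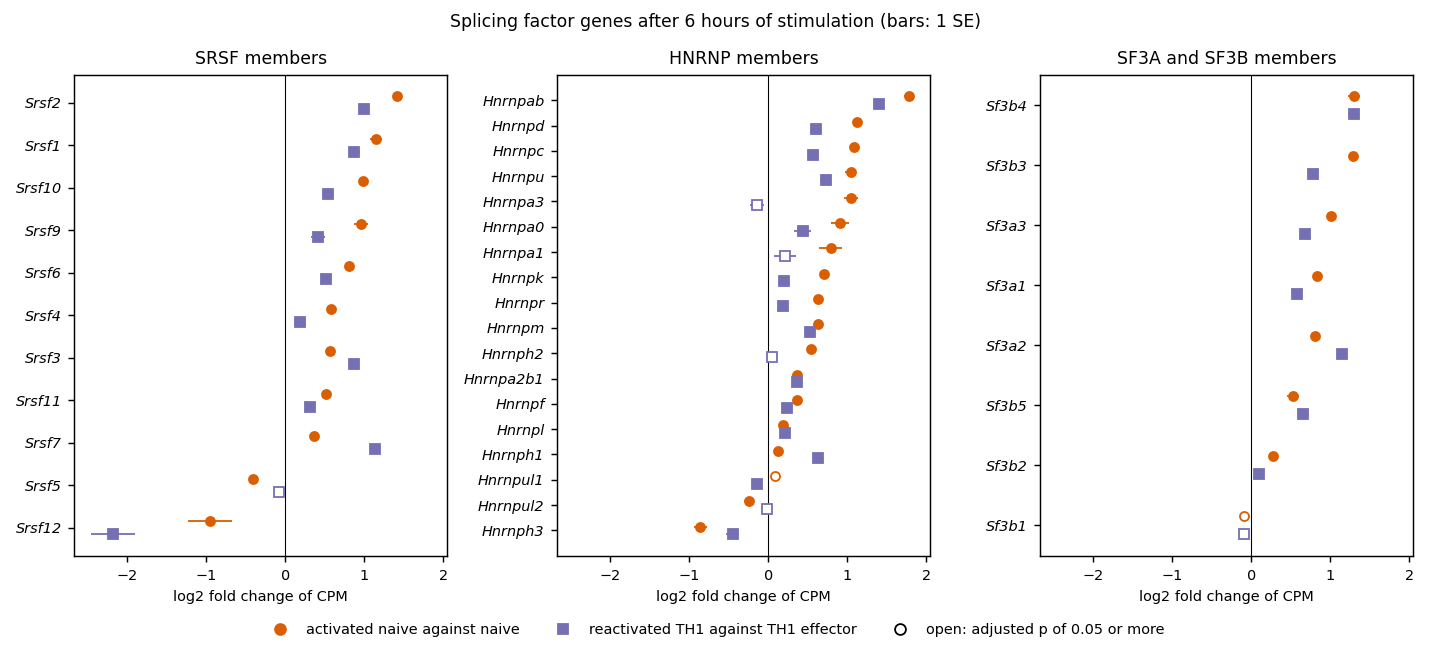
Log2 fold change of CPM (horizontal axis) after 6 hours of stimulation for each SRSF, HNRNP and SF3 gene, in naive cells (circles) and TH1 cells (squares). Bars are 1 SE and open symbols mark an adjusted p of 0.05 or more. Hnrnpab lies farthest right among the hnRNPs, at 1.78 and 1.40, and Sf3b1 is open in both.

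The interaction asked whether TH1 cells and naive cells responded by different amounts, and took the log2 change in TH1 cells minus that in naive cells. Cells and stimuli both differed here, and their parts cannot be told apart. The interaction passed for 30 members, 7 positive and 23 negative, where 68.0% of all genes passed, 34.3% positive and 33.7% negative. The members' median was -0.27 and that of all genes -0.00387. In the first run alone 6 were positive and 20 negative, and in the second 3 and 15.

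Srsf7 had the largest positive difference (0.77, SE 0.047, adjusted p = 1.84e-11), rising by 0.36 in naive cells and by 1.14 in TH1 cells. Hnrnph1 followed at 0.51 (SE 0.0727, adjusted p = 2.25e-06). Sf3a2 (0.33, adjusted p = 0.000843) and Srsf3 (0.31, adjusted p = 0.000341) also rose more in TH1 cells, though Srsf3 did not pass in the second run alone (0.0926).

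For Hnrnph3 (0.41, SE 0.117, adjusted p = 0.00275), Srsf5 (0.34, adjusted p = 0.000392) and Hnrnpul2 (0.22, adjusted p = 0.031) a positive value means a lesser fall or none in TH1 cells. The call for Hnrnph3 was lost in the second run alone (0.345), and that for Hnrnpul2 without number 2 (0.147).

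The most negative values were those of Srsf12 (-1.22, SE 0.395, adjusted p = 0.00935), Hnrnpa3 (-1.18, SE 0.127, adjusted p = 2.81e-09) and Hnrnpa1 (-0.58, SE 0.203, adjusted p = 0.0113). Srsf12 did not pass without number 1 (0.0567) or number 4 (0.0554), and Hnrnpa1 did not pass in the second run alone (0.16). Srsf9, Hnrnpd, Hnrnpc, Hnrnpk and Sf3b3 had values between -0.55 and -0.50, and each rose in both cell types, by less in TH1 cells. Hnrnph2 had a value of the same size (-0.50, SE 0.0709, adjusted p = 1.95e-06), but in TH1 cells its own difference of 0.043 did not pass (adjusted p = 0.463), and this difference was negative with library size as the only scaling (-0.079, adjusted p = 0.164). Srsf2 was lower by 0.42 (SE 0.0616, adjusted p = 7.57e-06) and Hnrnpab by 0.38 (SE 0.0838, adjusted p = 0.00039). Srsf1 passed at -0.27 (SE 0.106, adjusted p = 0.0211), but not without number 1 (0.0649) or number 4 (0.122).

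**Figure D3:**
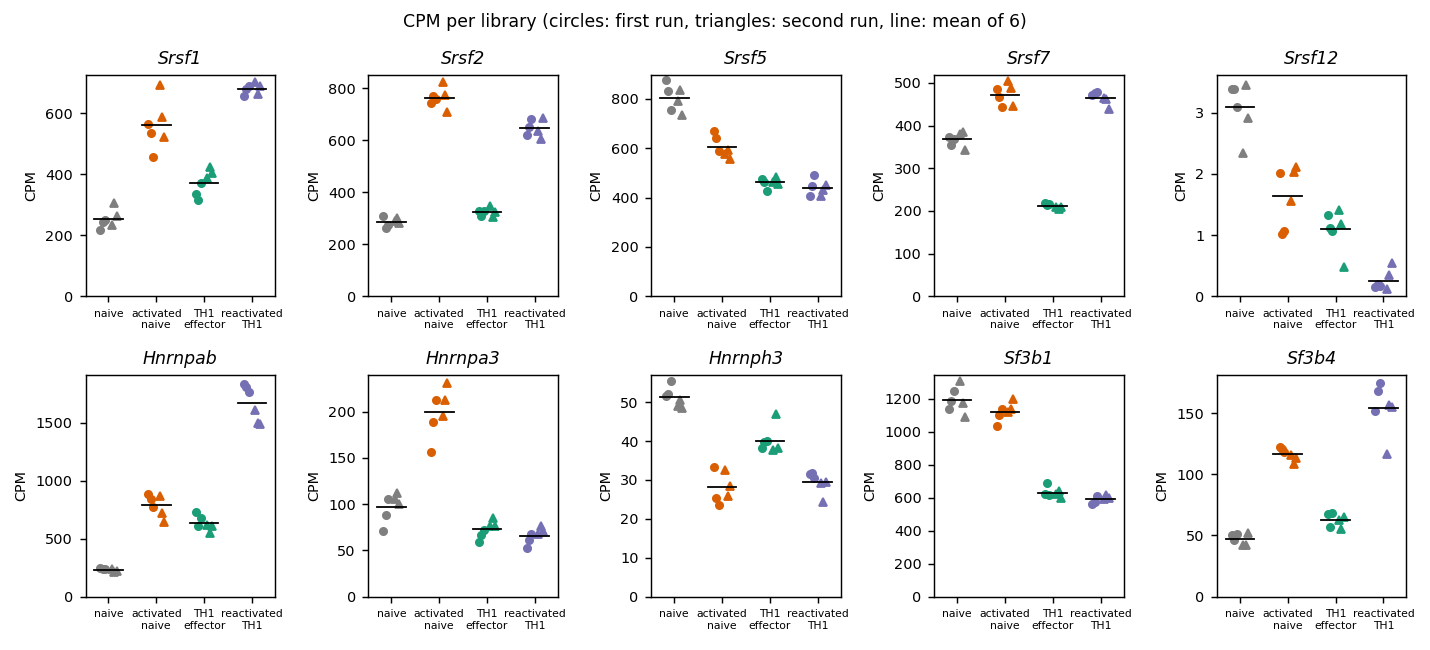
CPM (vertical axis, from 0) of 10 splicing factor genes in each of the 24 libraries by group. Circles are the first sequencing run, triangles the second and lines the mean of 6. Srsf7 is lowest in TH1 effector cells (204 to 218 CPM), Hnrnpab is highest in reactivated TH1 cells, and Sf3b1 is lower in both TH1 groups than in both naive groups.

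The next comparison set TH1 effector cells against naive cells, neither of them stimulated in the last 6 hours. It shares the naive libraries with the first comparison and the TH1 effector libraries with the second. In it 17 members were higher (45.9%) and 13 lower (35.1%), near the shares over all genes, of which 84.9% passed, 44.6% higher and 40.3% lower. The members' median log2 difference was 0.034 and that of all genes 0.0565. In the first run alone 17 were higher and 11 lower, and in the second 14 and 9. Several marker sums separated these groups as well. The sums of T cell identity genes and of macrophage markers, given above, were lower in every TH1 effector library. Of 9 tested T cell identity genes 7 were lower and none higher, but of 8 tested macrophage markers 3 were lower and 2 higher. Summed CD8 and NK cell markers were lower too, at 12.2 to 25.7 CPM against 29.1 to 34.9 in naive libraries. Of 4 tested ones 2 were lower and 1 higher. Summed dendritic cell markers were higher, at 1.51 to 3.60 against 0.235 to 0.516 CPM, as were the 2 tested ones. Sums of B cell markers overlapped (2.22 to 19.2 CPM in TH1 effector and 1.10 to 3.67 in naive libraries). The part of such cells in the differences was not tested.

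Among SR proteins 5 were higher and 4 lower in TH1 effector cells. Srsf9 (SRp30c), an SR protein with a short RS tail, had 33.1, 35.3 and 41.3 CPM in naive and 56.6, 65.1 and 75.3 in TH1 effector libraries (1.79-fold, log2 0.84, SE 0.0858, adjusted p = 6.91e-10). Srsf1 was higher too (log2 0.56, SE 0.075, adjusted p = 9.5e-08), with no overlap. Srsf2 was only slightly higher (log2 0.18, SE 0.0435, adjusted p = 0.00151) and did not pass in the second run alone (0.0849).

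Srsf7 and Srsf5 were both 1.74-fold lower in TH1 effector cells. For Srsf7 the naive libraries held 343, 371 and 385 CPM against at most 218 in TH1 effector libraries (log2 -0.80, SE 0.0332, adjusted p = 3.02e-15). For Srsf5 the naive libraries held 736, 811 and 875 CPM and the TH1 effector libraries 428, 465 and 481, with no overlap (log2 -0.80, SE 0.0507, adjusted p = 4.16e-13). Srsf12 was lower by 1.48 on the log2 scale (SE 0.279, adjusted p = 5.53e-06).

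Of the hnRNP genes 7 were higher, 7 lower and 4 did not pass. Hnrnpab was 2.75-fold higher (log2 1.46, SE 0.0593, adjusted p = 2.45e-17), with no overlap between groups. For Hnrnpl the level was 1.21-fold higher with no overlap (log2 0.28, SE 0.0475, adjusted p = 2.33e-05). Hnrnpa1 was lower (log2 -0.68, SE 0.144, adjusted p = 8.32e-05), as were Hnrnph1 (-0.50, SE 0.0514, adjusted p = 3.97e-09) and Hnrnpa3 (-0.42, SE 0.0898, adjusted p = 5.98e-05).

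In the SF3 complex 5 genes were higher and 2 lower, beside 44.6% and 40.3% of all genes. The lower ones were Sf3b1 and Sf3b2. Sf3b1 was 1.89-fold lower (log2 -0.92, SE 0.0427, adjusted p = 2.88e-15), its TH1 effector libraries at 599 to 688 CPM lying well under the naive ones at 1088 to 1306. Sf3b2 was lower by 0.23 (SE 0.0275, adjusted p = 5.61e-06). Its partners Sf3a1 (log2 0.52), Sf3b5 (0.46), Sf3a3 (0.42) and Sf3b4 (0.41) were higher.

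The last comparison set both stimulated groups side by side, reactivated TH1 against activated naive cells. The stimuli differed as well as the cells, and these cannot be told apart. In it 12 members were higher and 20 lower, where 79.8% of all genes passed, 43.4% higher and 36.4% lower. The members' median log2 difference was -0.15 and that of all genes 0.079. In the first run alone 10 were higher and 18 lower, and in the second 7 and 19. Markers of other cells moved with this comparison. In reactivated TH1 libraries, summed CD8 and NK cell markers stood at 48.9 to 87.6 CPM against 5.13 to 11.3 in activated naive ones, with 3 of 4 tested markers higher and 1 lower. Summed dendritic cell markers stood at 7.19 to 10.7 against 0.833 to 1.91 CPM, and summed macrophage markers at 12.4 to 18.7 against 10 to 12 CPM. The 2 tested dendritic cell markers were higher. Of 8 tested macrophage markers 6 were higher and 2 lower. The part of such cells was not tested.

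Hnrnpab stood 2.12-fold higher in reactivated TH1 cells (log2 1.08, SE 0.0593, adjusted p = 1.62e-14). Next came the small subunit Sf3b5, with 42.5, 49.5 and 57.2 CPM in activated naive and 64, 75 and 87 in reactivated TH1 libraries (1.51-fold, log2 0.59, SE 0.076, adjusted p = 7.4e-08). Sf3b4 was higher by 0.40 (SE 0.0727, adjusted p = 1.02e-05), Srsf3 by 0.34 (SE 0.0445, adjusted p = 6.42e-07) and Hnrnpl by 0.31 (SE 0.0475, adjusted p = 6.75e-06). Srsf1 was higher by 0.29 (adjusted p = 0.00082), but not past the threshold in the second run alone (0.149).

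Srsf12 was 6.53-fold lower in reactivated TH1 cells (log2 -2.71, SE 0.279, adjusted p = 1.54e-08). Hnrnpa3 was 3.03-fold lower, with 156, 204 and 231 CPM in activated naive libraries against at most 76 (log2 -1.60, SE 0.0898, adjusted p = 5.58e-15). Hnrnpa1 was 2.38-fold lower, with 13.5, 17.9 and 22.5 CPM in activated naive libraries against at most 8.81 (log2 -1.25, SE 0.144, adjusted p = 6.68e-09). Both A-type genes share many words with other genes, as given above.

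Sf3b1 was 1.90-fold lower (log2 -0.93, SE 0.0427, adjusted p = 3.98e-15), nearly the gap seen between the unstimulated groups. Srsf7 was at like levels in both, with 444, 475 and 504 CPM in activated naive and 439.6, 467 and 478 in reactivated TH1 libraries, and the difference did not pass (log2 -0.021, SE 0.0332, adjusted p = 0.651).

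**Figure D4:**
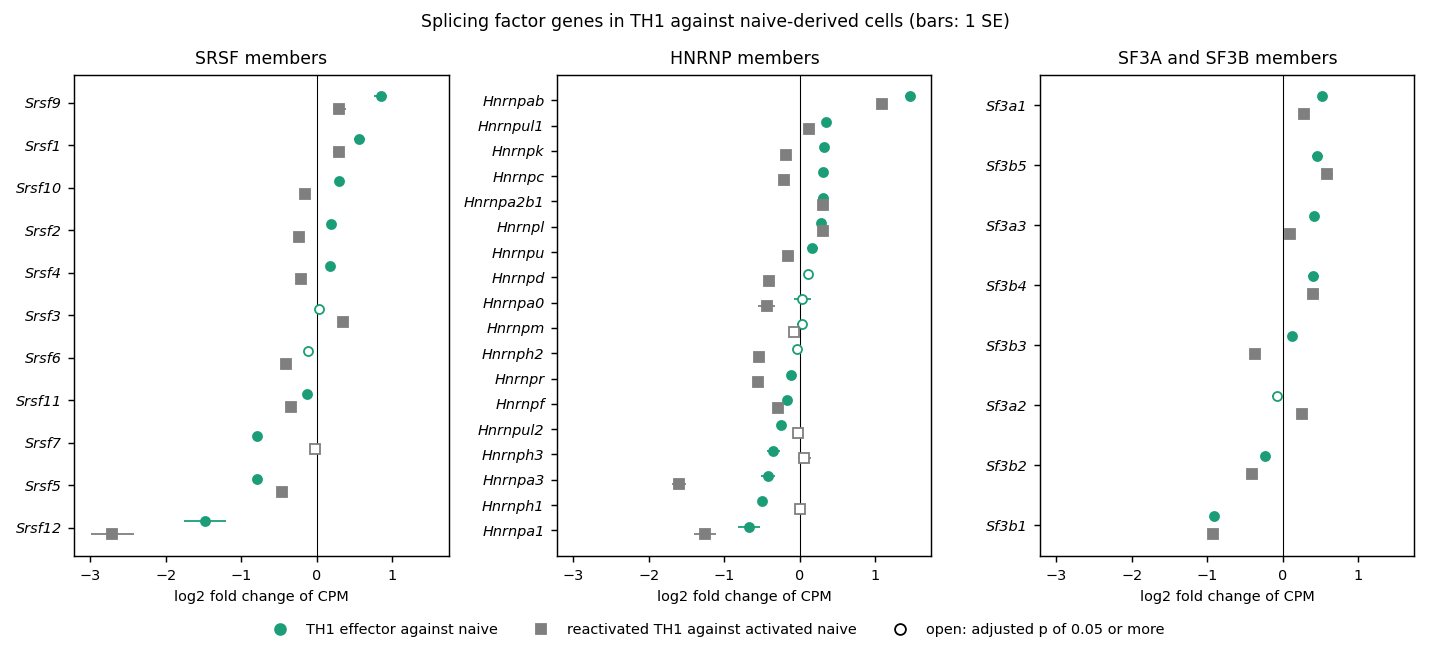
Log2 fold change of CPM (horizontal axis) of TH1 against naive-derived cells for each SRSF, HNRNP and SF3 gene, without stimulation (circles) and with it (squares). Bars are 1 SE and open symbols mark an adjusted p of 0.05 or more. Sf3b1 lies near -0.92 in both, and Hnrnpab is on the right in both.

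Relatives that the files list under older names were followed as well. Hnrnpll (as Hnrpll), the hnRNP known for CD45 exon skipping in activated and memory T cells, had 40.6, 43.8 and 46.6 CPM in naive and 66.8, 110.4 and 143 in activated naive libraries. It had 89.7, 99 and 107 CPM in TH1 effector and 278, 332 and 389.9 in reactivated TH1 libraries. No group of the stimulated cells overlapped its unstimulated one. Hnrpll rose in naive cells (2.49-fold, log2 1.32, SE 0.142, adjusted p = 3.22e-09) and in TH1 cells (3.37-fold, log2 1.75, SE 0.142, adjusted p = 2.44e-11), and the responses differed by 0.44 (adjusted p = 0.0409). Beside it Hnrnpl changed by 1.14-fold and 1.16-fold.

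Hnrnpdl (as Hnrpdl), close to Hnrnpd, rose by 0.82 in naive and 0.62 in TH1 cells, and was lower in TH1 effector than in naive cells by 0.40. Sf3b6 (as 0610009D07Rik), a further SF3B subunit, rose by 0.83 and 0.34.

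Other splicing genes were followed in 10 lists of 142 genes, all of which were tested. In activated naive cells 94 rose (66.2%, beside 41.3% of all genes) and 29 fell (20.4%, beside 40.5%). In reactivated TH1 cells 107 rose (75.4%, beside 39.9%) and 17 fell (12%, beside 39.8%). In TH1 effector against naive cells 55 were higher (38.7%, beside 44.6%) and 69 lower (48.6%, beside 40.3%), not far from the shares over all genes. In reactivated TH1 against activated naive cells 38 were higher (26.8%, beside 43.4%) and 70 lower (49.3%, beside 36.4%). The partners that recognise the intron end rose with SF3 in activated naive cells: 9 of 10 U2 recognition genes rose and none fell, where 41.3% of all genes rose. In reactivated TH1 cells 9 rose and 1 fell, where 39.9% rose. U2af1 and U2af2, the pair that reads the 3′ splice site, rose by log2 1.48 and 1.21 there and by 0.79 and 1.0 in reactivated TH1 cells.

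Of 14 Sm and LSm ring genes, which build the snRNP cores, 13 rose in activated naive cells (beside 41.3% of all genes) and 12 in reactivated ones (beside 39.9%). All 14 were higher in TH1 effector than in naive cells, where 44.6% of all genes were. Snrpd1 had 22.2, 24.7 and 28.4 CPM in naive and 109, 123 and 135 in activated naive libraries (log2 2.29, SE 0.0691, adjusted p = 2e-20). Prpf19, the ubiquitin ligase of the activated spliceosome, rose by 1.51 and 1.17 in naive and TH1 cells, and Ptbp1, a pyrimidine-tract repressor, by 0.97 and 0.56.

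SR proteins act when phosphorylated, and a list held their kinases, a phosphatase and import factors. In activated naive cells 2 of its 11 genes rose and 7 fell, where 41.3% of all genes rose and 40.5% fell. In reactivated TH1 cells 4 rose and 3 fell, where 39.9% rose and 39.8% fell, with a median log2 fold change of 0.024 over the list. The interaction passed as positive for 8 of the 11 and as negative for 1, beside 34.3% and 33.7% of all genes. Srpk2 went from 115, 127 and 143 CPM to 23.8, 27.9 and 44.1 (log2 -2.06, SE 0.111, adjusted p = 1.53e-15), and in TH1 cells from 72.5, 81.2 and 92 to 22.1, 22.9 and 29.9 (log2 -1.73, SE 0.111, adjusted p = 1.04e-13). Clk1 fell from 384, 449.8 and 484 to 144, 169 and 182 CPM in activated naive cells (log2 -1.43, SE 0.16, adjusted p = 8.92e-09). Tnpo3, which carries phosphorylated SR proteins into the nucleus, rose by 0.85 and 0.48.

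Genes of nonsense-mediated decay were lower in TH1 effector than in naive cells for 9 of 10, with none higher, where 40.3% of all genes were lower and 44.6% higher. In reactivated against effector TH1 cells 8 of the 10 rose and none fell, where 39.9% of all genes rose and 39.8% fell. Smg1, the kinase of that pathway, had 1362, 1434 and 1563 CPM in naive and 396, 503 and 587 in TH1 effector libraries (log2 -1.54, SE 0.0641, adjusted p = 2.56e-17). Celf2, a regulator of splicing in T cells, fell from 252, 293 and 380.1 to 44.9, 57.8 and 67.6 CPM in activated naive cells (log2 -2.38, SE 0.101, adjusted p = 1.31e-17), while in TH1 cells it fell by 0.45 and the groups overlapped. Mbnl1 fell in both, by 0.80 and 0.53, and Rbm3, a cold-induced RNA-binding protein, rose in both, by 1.23 and 0.62.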

How the data were processed

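RNA was measured in 24 libraries of 4 groups, which were taken from the labels, and each library was deposited as whole-number counts of reads per gene symbol, not normalised. Per the labels' protocols, RNA was taken from Trizol over columns and libraries were made with a TruSeq Stranded kit. The submitters' processing notes name mm10, DESeq2, HTSeq and STAR, with no roles or versions. No source used here states the annotation or the strand setting, and the authors' counts may mix genes that overlap on opposite strands, which 15 members do.

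The members were chosen by name. They and the lists, rules and settings were chosen with earlier results of these data known. Members given in full were, in each comparison, the 3 largest rises and 3 largest falls past the threshold, plus Hnrnpll, Hnrnpl, Srsf1, Srsf2, Srsf3 and Sf3b1. Srsf5, Srsf7, Hnrnpa1, Hnrnpa3 and some others so chosen in 1 comparison were also given in others, where this was decided after their values were seen. Partners named were fixed in the lists.

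The fit used edgeR 4.0.16, with limma 3.58.1 and statmod 1.5.0, under R 4.3.3. The filterByExpr rule kept 12584 genes, and TMM factors set the scale. A quasi-likelihood model with robust dispersions had group and run as terms, and Benjamini-Hochberg adjusted p-values below 0.05 passed. The steps were tested on simulated data. The SE belongs to a difference of mean log2 CPM and rests on how libraries of 1 group and run vary. Exon lengths, overlaps and shared words of 50 bases came from GENCODE M21, and promoters from RefSeq on GRCm38.p6. The alternatives included DESeq2 1.42.0, other scalings and filters, each run alone and libraries left out.

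No 2 libraries of a group agreed within sampling noise (lowest chi-square per degree of freedom 9.21). Libraries with the same number in different groups deviated together from their group means in all 36 pairs (correlation 0.106 to 0.43). After removing run as well, 35 of 36 were over 0.1 (0.079 to 0.419). The labels do not say what a number shares.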

Additional observations from a re-analysis of the deposited data

Results flagged for a closer look

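In 8 of 148 sets of 6 libraries, 1 library lay apart from the other 5 of its group, which is 5.41% where chance gives about 5%. In naive number 5 Hnrnpa2b1 stood at 1140.3 CPM, above the next library at 959, and Hnrnph2 stood at 119.9, above 100.4. In TH1 effector number 5 Hnrnph3 was at 47 CPM, above 39.9, and in reactivated TH1 number 5 it was at 24.2, below 29.2. Hnrnpul2 was at 359 CPM in TH1 effector number 1, above 328, and Srsf4 at 129 in naive number 1, above 110.3. Hnrnpd was at 321 CPM in reactivated TH1 number 1, below 358 and Sf3a2 at 136 in reactivated TH1 number 4, each below the rest of its group. Number 5 accounts for 4 of these 8 values, in 3 groups.

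The log2 response to stimulation differed between TH1 and naive cells for 30 members by the interaction term of edgeR's model. By the same term 68.0% of all genes passed, 34.3% positive and 33.7% negative. The stimuli of TH1 and naive cells differed as well, and the parts of cells and stimuli cannot be told apart. Positive values, a larger rise or smaller fall in TH1 cells, were those of Srsf7 (0.774), Hnrnph1 (0.507), Hnrnph3 (0.413), Srsf5 (0.335), Sf3a2 (0.334), Srsf3 (0.312) and Hnrnpul2 (0.223). Among SR protein genes the response was lower in TH1 cells for Srsf12 (-1.22), Srsf9 (-0.546), Srsf10 (-0.442), Srsf2 (-0.42), Srsf4 (-0.383), Srsf6 (-0.291), Srsf1 (-0.273) and Srsf11 (-0.207). Among hnRNP genes it was lower for Hnrnpa3 (-1.18), Hnrnpa1 (-0.576), Hnrnpd (-0.521), Hnrnpc (-0.519), Hnrnpk (-0.505), Hnrnph2 (-0.503), Hnrnpa0 (-0.473), Hnrnpr (-0.447), Hnrnpab (-0.376), Hnrnpu (-0.317) and Hnrnpul1 (-0.224). In the SF3 complex it was lower for Sf3b3 (-0.5), Sf3a3 (-0.326), Sf3a1 (-0.246) and Sf3b2 (-0.18).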

How the results depend on the processing

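Counts of members were recomputed under each alternative, and most stayed within 1.5 times their value. Against a minimum change of 1.5-fold, 20 members passed in activated naive against naive cells (18 higher, 2 lower), 6 in TH1 effector against naive (2 and 4), 11 in reactivated TH1 against TH1 effector (10 and 1), 5 in reactivated TH1 against activated naive (1 and 4) and 2 in the interaction (1 and 1), fewer by the test's own construction. In the second run alone, with fewer libraries, 2 members were lower in activated naive cells, 7 were higher in reactivated TH1 than in activated naive cells, and the interaction passed for 18 (3 positive and 15 negative). Lower members in reactivated TH1 against TH1 effector cells numbered 3, but 7 with library size as the only scaling, 5 when genes needed 10 CPM in 6 libraries and 6 with DESeq2, and the cause was not tested. Library size as the only scaling moved the median of all genes by -0.167 in activated naive cells and by -0.122 in reactivated TH1 cells. Leaving out 1 replicate number moved no count of members by more than 1.5 times.

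The replicate block lost Hnrnph1 in activated naive cells (log2 0.1198, adjusted p = 0.0547) and added Hnrnpa3 in reactivated TH1 cells (-0.1402, adjusted p = 0.00808), and changed no other call of a member. Of the member values past the threshold, the 2 that changed sign under an alternative were Hnrnph1 in activated naive cells (-0.046, adjusted p = 0.451) and Sf3b2 in reactivated TH1 cells (-0.024, adjusted p = 0.548), both with library size as the only scaling. Of 27 values that did not pass, the largest being 0.213, 17 changed sign and 10 passed under at least 1 alternative. Among those printed, Hnrnph2 in reactivated against effector TH1 cells was between -0.079 and -0.016 with library size as the only scaling, with the 10 CPM minimum, in the second run alone and with DESeq2, Hnrnpa1 in reactivated against effector TH1 cells was -0.0075 without numbers 5 and 6, and Srsf7 in reactivated TH1 against activated naive cells was 0.041 in the first run alone. Apart from the 1.5-fold minimum, the call held under every alternative for 31 of 35 members in activated naive cells, 22 of 30 in TH1 effector cells, 24 of 31 in reactivated TH1 cells, 25 of 32 between stimulated groups and 17 of 30 in the interaction. Depth limits mainly Srsf12, with 40 counts in all reactivated TH1 libraries.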
